A study of Rattus norvegicus with 9 samples.

Results

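miR-378a is a conserved miRNA whose hairpin lies inside Ppargc1b, the gene for the transcriptional coactivator PGC-1beta. Its level was read here in cultured rat cartilage progenitor cells through 3 of the 726 rows of a small RNA count table: rno-miR-378a-3p, rno-miR-378a-5p and rno-miR-3557-5p, written below without the prefix for rat. The rows were picked by name, with earlier results of the same libraries known, among them the low count of miR-378a-3p at passage 9. miR-3557-5p carried the same reads as miR-378a-3p, so the 3 rows stand for 2 distinct miRNAs. The cells were wild-type primary cultures from rat condylar cartilage, and 3 groups of 3 libraries were sequenced: passage 9 cells (P9, described by the submitters as replicative senescence), passage 3 cells exposed to flow fluid shear stress (FFSS), and passage 3 cells as the control (P3). The strength and duration of the flow, and whether replicates came from separate animals or cultures, are not given in the labels, and the p-values cover no more than the library-to-library spread, which may be technical.

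A miRNA hairpin is cut into a pair of arms, 5p and 3p, and the arm loaded into an Argonaute protein pairs with target mRNAs mainly through its seed, bases 2 to 8. In mice, the arms of miR-378a are made together with the PGC-1beta transcript, and the hairpin has been tied to fatty acid use, mitochondrial metabolism and fat cell and muscle biology. PGC-1beta itself raises the transcription of mitochondrial and fatty acid oxidation genes. Cartilage progenitor cells are migratory, clonogenic cells that can form chondrocytes.

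The mature sequences of the members and of the other arm of miR-3557 are shown because their strands decide what the counts can mean, with the seed in capitals (RefSeq, build GRCr8).
miR-378a-3p: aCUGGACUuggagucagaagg
miR-378a-5p: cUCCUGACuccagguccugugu
miR-3557-5p: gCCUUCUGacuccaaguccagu
miR-3557-3p: aCACAGGAccuggagucaggag
All 3 members matched a RefSeq entry by name. miR-378a-3p lies at chr18:57128925-57128945 and miR-378a-5p at chr18:57128962-57128983, both on the minus strand of GRCr8. miR-3557-5p lies at chr18:57128924-57128945 and miR-3557-3p at chr18:57128962-57128983, both on the plus strand. All 21 bases of miR-378a-3p pair with miR-3557-5p, and all 22 bases of miR-378a-5p pair with miR-3557-3p. The miR-3557 hairpin is therefore the opposite strand of the miR-378a hairpin, as its sequence shows with both mature arms in capitals (chr18:57128900-57129012, plus strand).
miR-3557 hairpin: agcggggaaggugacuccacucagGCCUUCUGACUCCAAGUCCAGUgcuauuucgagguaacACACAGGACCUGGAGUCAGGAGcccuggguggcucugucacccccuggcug
The RefSeq annotation places the miR-378a hairpin inside Ppargc1b and on its strand. miR-3557 runs against the gene. Among the 693 mature sequences compared, which do not include miR-378b, no other had the seed of miR-378a-3p, miR-378a-5p or miR-3557-5p. The row named miR-378b, from another chromosome, had 0 to 7 reads per library and was not kept for testing. It had 0 reads in P9 replicates 1 and 3, where a count of 0 allows up to 0.394 and 0.367 CPM (counts scaled to 1000000 miRNA reads per library).

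The rows of opposite strands had nearly the same counts. miR-378a-3p and miR-3557-5p differed in 1 library of 9, FFSS replicate 1, by 2 reads, with 10374 reads for miR-378a-3p and 10376 for miR-3557-5p. The other arms agreed less closely: miR-378a-5p had more reads than miR-3557-3p in each of the 9 libraries, by 2, 5 and 8 reads in P9, by 4, 5 and 8 in FFSS and by 12, 15 and 33 in P3. Across the table, RefSeq placed 43 pairs of measured mature miRNAs on opposite strands with at least 15 shared positions. Of the 38 pairs that averaged 10 counts or more on 1 of the strands, 27 agreed in every library within 10% or 5 reads, and 9 were equal in every library. miR-378a-5p and miR-3557-3p fell outside that tolerance in 3 libraries, with 64 and 56 reads in P9 replicate 3, 122 and 107 in P3 replicate 2 and 293 and 260 in P3 replicate 3. The labels do not say how the authors' counting treated strand, and reads of a sense and an antisense product cannot be told apart in these rows.

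**Figure D1:**
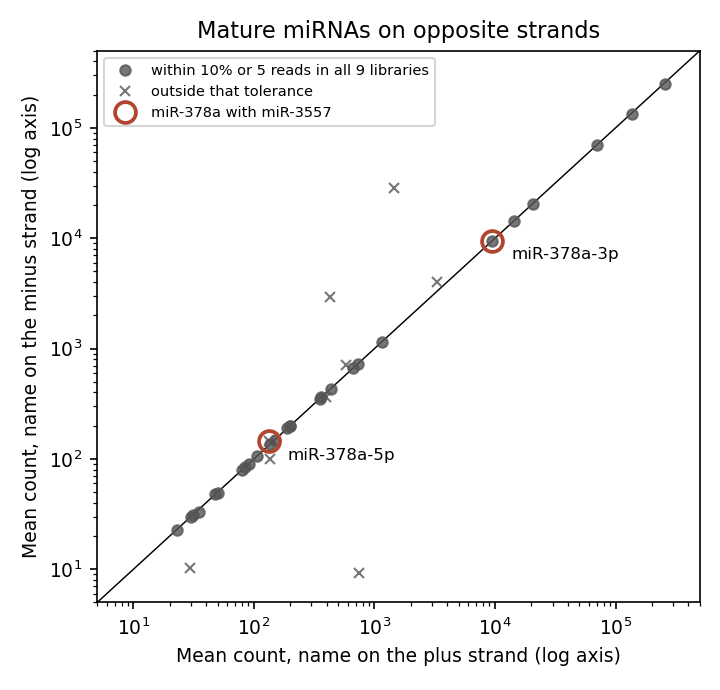
Mean read count over the 9 libraries of the plus-strand name (horizontal, log axis) and of the minus-strand name (vertical, log axis) for the 38 antisense pairs of mature miRNAs averaging 10 counts or more. Dots mark the 27 pairs that agreed within 10% or 5 reads in every library, crosses mark the others, the diagonal is equality, and both miR-378a arms (circled) lie on or close to it.

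The miRNA reads per library came to 7614513 to 8177357 in P9, 2878910 to 7082142 in FFSS and 7522702 to 8862560 in P3. FFSS replicates 1 and 3 were the shallowest, at 2878910 and 3896403 reads. Log2(CPM + 1) correlated across all rows at 0.991 to 0.996 between P3 libraries. P9 replicate 3 stood apart from the other P9 libraries, at 0.977 and 0.981 against 0.996 between replicates 1 and 2, and FFSS replicate 1 reached 0.977 and 0.982 against 0.992. The cartilage miRNA miR-140-3p was present in every library, at 2037 to 2999 CPM in P9, 4830 to 6378 CPM in FFSS and 3119 to 5855 CPM in P3.

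The 3p arm was the main product of the hairpin. miR-378a-3p had 433.9, 312.6 and 472.6 CPM in P9 replicates 1 to 3. It had 3603, 1592 and 2657 CPM in FFSS replicates 1 to 3, and 2088, 947.5 and 2187 CPM in P3 replicates 1 to 3. All P9 libraries lay below all FFSS and P3 libraries, whereas FFSS and P3 overlapped, since FFSS replicate 2 was below P3 replicates 1 and 3. Behind these levels stood 2459 to 3865 reads per library in P9, 10354 to 11278 in FFSS and 7128 to 19381 in P3. By rank among the 726 rows, miR-378a-3p was row 68 to 88 in P9, 30 to 47 in FFSS and 40 to 51 in P3.

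The 5p arm was the minor product by reads in these cells. miR-378a-5p had 8.27, 8.13 and 7.83 CPM in P9, from 63, 64 and 64 reads. It had 41.7, 21.3 and 35.2 CPM in FFSS, from 120, 151 and 137 reads. In P3 it had 33.3, 16.2 and 33.1 CPM, from 280, 122 and 293 reads. The P9 libraries again lay below all others, and FFSS and P3 overlapped. In both arms the highest library was FFSS replicate 1, followed by FFSS replicate 3, and P3 replicate 2 was the lowest of the passage 3 libraries, with or without shear stress. Within P9, replicate 3 was the highest library for the 3p arm and the lowest for the 5p arm. The 5p counts there, 63 to 64 reads, are too close to rank the P9 libraries.

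**Figure D2:**
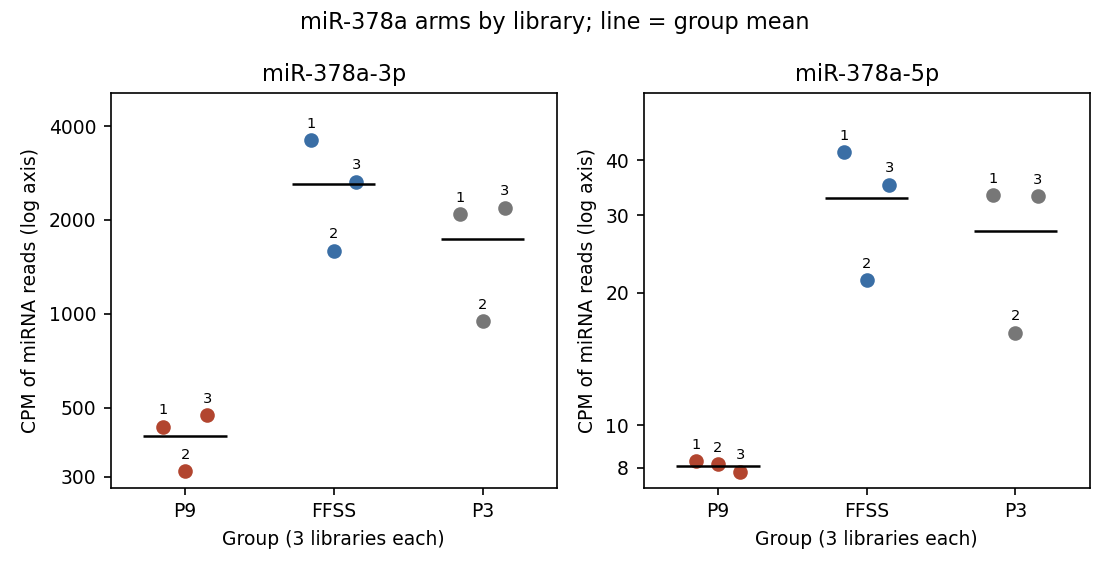
Level of miR-378a-3p (left) and miR-378a-5p (right) in CPM on log axes for the 3 libraries each of P9, FFSS and P3; points are libraries labelled by replicate number and lines are group means. All P9 points lie below all FFSS and P3 points in both panels, while FFSS and P3 points overlap.

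Replicative senescence is read from P9 set against P3. This contrast was known when the rows were picked, so its values are a description without a test. miR-378a-3p averaged 406 ± 83.5 CPM in P9 and 1741 ± 689 CPM in P3 (SD, n = 3 each), and the P9 mean was 23.3% of the P3 mean. The fitted log2 fold change was -2.02 (SE 0.37) for miR-378a-3p and for miR-3557-5p. The highest P9 library had 472.6 CPM and the lowest P3 library, replicate 2, had 947.5 CPM. miR-378a-5p averaged 8.08 ± 0.229 CPM in P9 and 27.5 ± 9.79 CPM in P3, with a log2 fold change of -1.68 (SE 0.38). Its P9 SD comes from 63, 64 and 64 reads and is smaller than their counting error, so it overstates the precision. The other arm of the antisense hairpin, miR-3557-3p, averaged 7.45 ± 0.536 CPM in P9 and 25.1 ± 9.54 CPM in P3, with a log2 fold change of -1.67 (SE 0.38).

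Among the 439 miRNAs kept by the expression filter, 10 had a lower fold change than miR-378a-3p at passage 9, and 18 had a lower one than miR-378a-5p. All 3 rows, or 2 distinct miRNAs, had non-overlapping libraries with P9 below P3, a pattern that 14.1% of the 439 miRNAs showed. Without P9 replicate 3 the log2 fold change was -2.20 (SE 0.42) for miR-378a-3p and -1.71 (SE 0.42) for miR-378a-5p. Without P3 replicate 2, the low control, it was -2.25 (SE 0.39) and -1.90 (SE 0.40). The falls were smallest without P3 replicate 3, at -1.75 (SE 0.42) for miR-378a-3p and -1.47 (SE 0.44) for miR-378a-5p. Without P9 replicate 2 miR-378a-3p had -1.84 (SE 0.45). In these bulk libraries, fewer cells that make the miRNA and less of it per cell cannot be told apart.

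The direct contrast of P9 with FFSS is also a description. miR-378a-3p averaged 406 ± 83.5 CPM in P9 and 2618 ± 1006 CPM in FFSS, with a log2 fold change of -2.60 (SE 0.38). For miR-378a-5p the means were 8.08 ± 0.229 CPM in P9 and 32.7 ± 10.4 CPM in FFSS, with a log2 fold change of -1.91 (SE 0.38). Here too the P9 SD is smaller than the counting error. The lowest FFSS library was 3.37 times the highest P9 library for the 3p arm and 2.58 times for the 5p arm. P9 libraries lay entirely below FFSS libraries for 19.8% of the 439 miRNAs. Without FFSS replicate 1 the values were -2.07 (SE 0.34) and -1.49 (SE 0.37).

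FFSS set against P3 asks what flow does at the same passage, and here the members were tested. miR-378a-3p averaged 2618 ± 1006 CPM in FFSS and 1741 ± 689 CPM in P3. The log2 fold change was 0.58 (SE 0.36, 95% interval -0.20 to 1.36), and it did not pass edgeR's quasi-likelihood test (adjusted p = 0.256 over 439 miRNAs). miR-378a-5p averaged 32.7 ± 10.4 CPM in FFSS and 27.5 ± 9.79 CPM in P3. Its log2 fold change was 0.22 (SE 0.36, 95% interval -0.56 to 1.01; edgeR adjusted p = 0.673). miR-3557-5p, with the reads of the 3p arm, gave 0.58 (edgeR adjusted p = 0.256). The intervals leave room both for a small fall and for a rise of more than 1 on the log2 scale in the 3p arm, so the difference was not resolved with 3 libraries per group.

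None of the 3 rows was called in this contrast with edgeR, DESeq2 or limma-voom, against 20.5% of the 439 miRNAs called by edgeR. Their unadjusted edgeR p-values were 0.131 for both rows of the 3p arm and 0.549 for the 5p arm. The values were lower without FFSS replicate 1, when the log2 fold change was 0.07 (SE 0.34) for miR-378a-3p and -0.18 (SE 0.37) for miR-378a-5p. Without P3 replicate 2 the values were 0.27 (SE 0.39) and -0.06 (SE 0.40). The P3 libraries of this contrast are the same as those of the passage contrast, in which the rows were picked.

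The balance of the arms was read as the 5p share of all miR-378a reads, which does not depend on the scaling between libraries. The share was 1.87%, 2.54% and 1.63% in P9 (95% Wilson intervals 1.47 to 2.39, 1.99 to 3.23 and 1.28 to 2.07). It was 1.14%, 1.32% and 1.31% in FFSS (0.957 to 1.37, 1.13 to 1.55 and 1.11 to 1.54), and 1.57%, 1.68% and 1.49% in P3 (1.40 to 1.76, 1.41 to 2.01 and 1.33 to 1.67). The FFSS libraries all lay below the P3 libraries, and P9 overlapped P3. The 3p arm thus had 78.9 ± 6.55 reads per 5p read in FFSS and 62.4 ± 3.87 in P3, beside 50.4 ± 11.1 in P9 (SD, n = 3 each). These intervals cover counting error only.

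**Figure D3:**
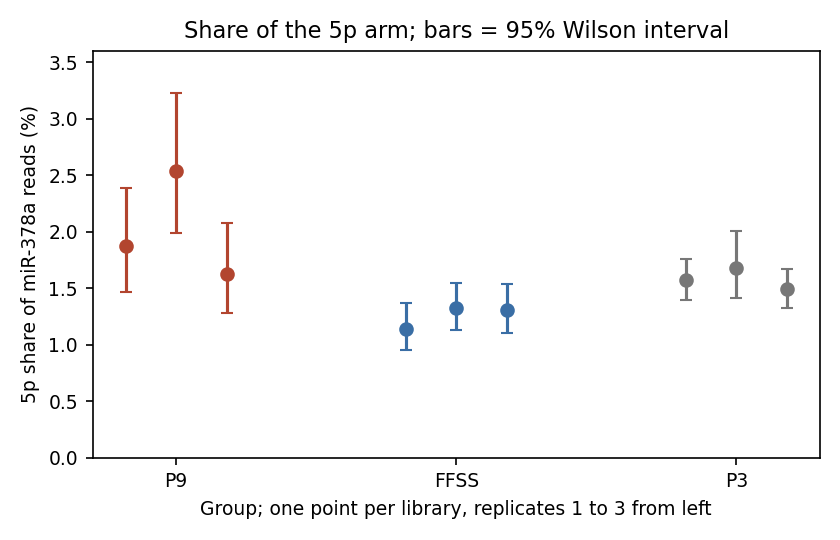
Share of miR-378a reads that came from the 5p arm, in percent, for each library of P9, FFSS and P3; bars are 95% Wilson intervals of the counts. The FFSS shares, 1.14% to 1.32%, lie below the P3 shares, 1.49% to 1.68%, and P9 replicate 2 is the highest at 2.54%. FFSS and P3 intervals overlap, except that of FFSS replicate 1 with those of P3 replicates 1 and 2.

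The arm ratio was tested with limma as log2(5p over 3p) in the 89 hairpins whose arms both averaged 20 counts or more. For miR-378a it differed by -0.33 between FFSS and P3 (SE 0.33, 95% interval -1.05 to 0.38), which did not pass (limma adjusted p = 0.494). Non-overlapping libraries with FFSS below P3 were shown by 29.2% of the hairpins, and 4.49% were called, so such a separation was common. The median over all hairpins was -0.25. Between P9 and P3 the miR-378a ratio differed by 0.34 (SE 0.33), and between P9 and FFSS by 0.67 (SE 0.33), both given without a test. The P9 ratios lay entirely above the FFSS ratios, as they did in 19.1% of the hairpins. The 89 hairpins include miR-3557, whose arms carry nearly the same reads as miR-378a and whose ratio runs the other way.

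The rows most like miR-378a-3p were sought by the root mean square difference between profiles of log2(CPM + 1), each centred on its mean over the 9 libraries, among 179 other rows with a mean of at least 50 CPM. The median row differed by 1.22 on this scale. Closest were miR-195-5p (0.58), miR-224-5p (0.59), miR-23b-3p (0.68), miR-140-3p (0.73) and miR-320-3p (0.73). miR-195-5p, a cell cycle repressor with the seed of miR-15 and miR-16, averaged 14.1 ± 3.05 CPM in P9, 171 ± 36.1 CPM in FFSS and 87.2 ± 33.7 CPM in P3. miR-224-5p, from an intron of the GABA receptor gene Gabre, averaged 61.3 ± 41.8 CPM in P9, 571 ± 145 CPM in FFSS and 189 ± 19.0 CPM in P3. All 5 shared the order of group means of miR-378a-3p, lowest in P9 and highest in FFSS. The rows were chosen for this likeness, over libraries that fall into 3 groups, so it carries no test.

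**Figure D4:**
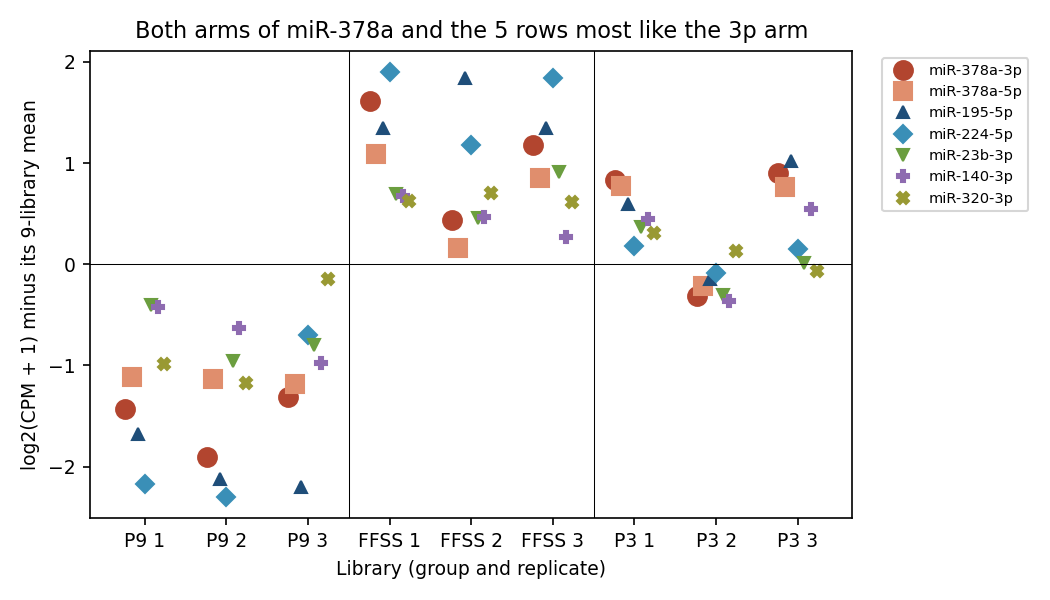
Log2(CPM + 1) minus its mean over the 9 libraries (vertical) for both arms of miR-378a and the 5 rows closest to miR-378a-3p, by library (horizontal). P9 values are below 0 and FFSS values above 0 for all 7 rows, and P3 replicate 2 is the lowest P3 library for both arms.

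Other miRNAs of metabolism were counted from lists written down by role. These lists, and those of intronic miRNAs and markers below, were chosen with earlier results of these data known. Of 23 tested miRNAs of lipid, glucose and insulin biology, 1 was higher and 0 lower in P9 than in P3 (edgeR), beside 3.87% higher and 3.42% lower of all miRNAs tested (7.29% in all). Their median log2 fold change was -0.18, against 0.06 for all miRNAs. The 1 that rose was miR-143-3p, which impairs insulin signalling in mouse liver (1.35, SE 0.24, edgeR adjusted p = 0.00348), and it was called with any 1 of the 9 libraries left out. No member of this list had a fold change as low as that of miR-378a-3p. As miR-378a-3p was picked with its low P9 level known, its place beside the lists is a description. At an unadjusted edgeR p under 0.05 stood 7 of the 23, beside 76 of all 439 miRNAs. Of 24 tested fat cell and mitochondria miRNAs, 0 were called in P9 against P3 by edgeR, with a median of 0.05 and again none below miR-378a-3p. DESeq2 called 0 of them too, and 2 had an unadjusted edgeR p under 0.05. The smallest p values there belonged to miR-196a-5p (1.22, SE 0.50, edgeR adjusted p = 0.212) and miR-27b-3p, which restrains brown fat genes in mice (-0.65, SE 0.29, edgeR adjusted p = 0.252).

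Under shear stress the lipid, glucose and insulin list had 0 higher and 1 lower than P3, with a median of -0.12 against 0.02 for all miRNAs, while 6.83% of all miRNAs were called higher and 13.7% lower. The 1 that fell was miR-370-3p of the imprinted Dlk1-Dio3 locus (-1.81, SE 0.31, edgeR adjusted p = 0.00636), called with any 1 of the 9 libraries left out. miR-378a-3p stood above 21 of the 23 members, and above 310 of all 439 miRNAs tested. The fat cell and mitochondria list had 2 higher and 1 lower, with a median of 0.45: miR-193a-3p (1.73, SE 0.51, edgeR adjusted p = 0.0360) and miR-23a-3p, a repressor of PGC-1alpha in mouse muscle (0.79, SE 0.24, edgeR adjusted p = 0.0392), rose, and miR-494-3p fell (-2.81, SE 0.63, edgeR adjusted p = 0.00985). The calls of miR-193a-3p and miR-23a-3p were lost without any 1 of 7 libraries (edgeR adjusted p up to 0.121 and 0.188), P3 replicates 1 to 3, P9 replicates 1 and 2 and FFSS replicates 1 and 3, and that of miR-494-3p without FFSS replicate 3 (0.0514). miR-378a-3p stood above 13 of these 24.

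As miR-378a lies within a coding gene, miRNAs known from introns of other coding genes were also counted. Of 61 tested, 1 was higher and 3 were lower in P9 than in P3, with a median of -0.11, beside 3.87% higher and 3.42% lower of all 439 miRNAs. miR-708-3p and miR-708-5p of the teneurin gene Tenm4 fell (-2.31, SE 0.43, edgeR adjusted p = 0.00395, and -1.94, SE 0.53, edgeR adjusted p = 0.0419), as did miR-452-5p of Gabre (-1.91, SE 0.37, edgeR adjusted p = 0.00475). miR-598-3p rose (1.40, SE 0.34, edgeR adjusted p = 0.0218). miR-708-3p was called with any 1 library left out. miR-452-5p lost its call without P3 replicate 3 (edgeR adjusted p = 0.0542). For miR-708-5p the call ended on leaving out FFSS replicate 3, either of P9 replicates 1 and 2, or either of P3 replicates 1 and 3 (up to 0.150), and for miR-598-3p on leaving out any 1 of P3 replicates 1 to 3 and P9 replicates 1 and 2 (up to 0.114). At an unadjusted edgeR p under 0.05 stood 12 of the 61, beside 76 of all 439. miR-378a-3p, picked with its low P9 level known, was lower than 60 of the 61. Under shear stress 2 were higher and 3 lower, with a median of -0.04, beside 6.83% higher and 13.7% lower of all 439 miRNAs. There miR-378a-3p was above 48 of the 61, beside 310 of all 439. The mRNA of Ppargc1b was not analysed here.

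Between P9 and FFSS 22.6% of all miRNAs were called higher and 11.8% lower (34.4% in all). The lipid, glucose and insulin list had 4 higher and 2 lower, led by miR-370-3p (2.08, SE 0.31, edgeR adjusted p = 6.87e-04) and miR-143-3p (1.48, SE 0.24, edgeR adjusted p = 7.24e-04). The fat cell and mitochondria list had 2 higher and 5 lower, with miR-494-3p higher (2.94, SE 0.63, edgeR adjusted p = 0.00350) and miR-23a-3p lower (-0.96, SE 0.24, edgeR adjusted p = 0.00838; 0.0746 without P9 replicate 2). Of the intronic miRNAs 4 were higher and 12 lower, among them miR-224-5p and miR-452-5p of Gabre (-3.07, SE 0.47, and -2.38, SE 0.37, edgeR adjusted p = 6.87e-04 for both). The value of miR-378a-3p, -2.60, was below all members of the first and second of these lists and above 3 intronic miRNAs. This place is a description too, as its low P9 level was known.

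**Figure D5:**
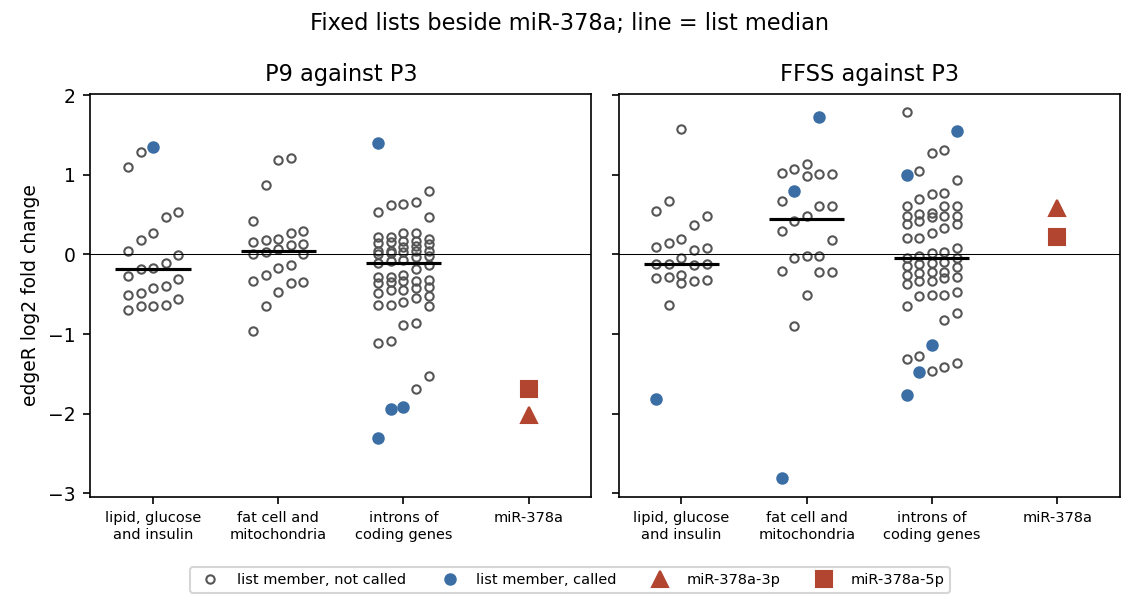
edgeR log2 fold change (vertical) of the tested members of 3 miRNA lists and of both miR-378a arms, for P9 against P3 (left) and FFSS against P3 (right); filled circles were called at an adjusted p under 0.05, open circles were not, and lines are list medians. Both arms lie at -2.02 and -1.68 on the left and at 0.58 and 0.22 on the right.

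miR-378a is also abundant in muscle, so markers of other tissues were read beside it. The 10 measured muscle markers summed to 227 to 624 CPM in P9, 301 to 605 CPM in FFSS and 223 to 259 CPM in P3. The 8 blood markers summed to 73.3 to 311 CPM in P9, 171 to 603 CPM in FFSS and 79.7 to 160 CPM in P3. No marker of any list was at 0 in all libraries. Within FFSS, miR-1b of muscle had 457, 157 and 229 CPM and miR-451-5p of red blood cells had 276, 63.8 and 180 CPM in replicates 1 to 3, the same order of libraries as miR-378a-3p. Of the 6 muscle markers that reached 20 CPM in any library, 5 had this order, among them miR-133a-3p and miR-133c, whose counts are nearly the same. miR-499-5p ran against it, at 36.8, 100.1 and 78.3 CPM. In P9, miR-1b had 126, 124 and 462 CPM, highest in replicate 3 as was miR-378a-3p, and 4 of the 6 had the order of miR-378a-3p. miR-499-5p was lowest there, at 69.3, 67.5 and 49.0 CPM, and miR-206-3p was highest in replicate 1, at 18.4, 8.01 and 9.78 CPM. miR-451-5p had 34.5, 123 and 117 CPM in P9, another order again. In P3, miR-1b had 116, 125 and 112 CPM, and its highest library, replicate 2, was the lowest for miR-378a-3p. There, 2 of the 6 muscle markers, miR-133a-3p and miR-133c, had the order of miR-378a-3p. Both epithelial markers that reached 20 CPM, miR-205 and miR-203a-3p, had it in FFSS and P3, and 0 of 2 in P9. For blood it was 2 of 2 in FFSS and 0 in P9 and P3. For cartilage it was 2 of 4 in P3 and 0 in P9 and FFSS. For liver, endothelium and nerve it was 3 of 4 in P9 and in FFSS and 0 in P3. The depth of the FFSS libraries ran against the order of miR-378a-3p, with the fewest reads in replicate 1. Replicates 1 to 3 allow only a few orders, and how many of all rows shared each order was not counted. These counts of markers therefore have no background. The part of these markers and of depth in the miR-378a values was not tested.

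Epithelial markers summed to 41.0 to 85.4 CPM in P9, 108 to 239 CPM in FFSS and 92.7 to 116 CPM in P3. Liver, endothelium and nerve markers summed to 902 to 2061 CPM in P9, 1313 to 1995 CPM in FFSS and 938 to 1573 CPM in P3. They were led by miR-128-3p and miR-126a-3p, and the liver marker miR-122-5p had 3.94, 3.43 and 22.9 CPM in P9, 51.4, 15.5 and 30.5 CPM in FFSS and 9.87, 11.7 and 10.2 CPM in P3. Between FFSS and P3, edgeR called 1 higher and 0 lower in each of the blood, epithelium and liver, endothelium and nerve lists. It called 0 of the muscle and cartilage markers, as did DESeq2. Of all 439 miRNAs, edgeR called 6.83% higher and 13.7% lower in that contrast. Between P9 and P3, edgeR called 0 in all 5 lists, beside 7.29% of all 439. All 5 tested blood markers had higher fitted levels in FFSS than in P3, with log2 fold changes of 1.02 to 1.67 and a median of 1.53, and DESeq2 called 3 of them. For FFSS against P3, 4 of these 5 stood at an unadjusted edgeR p under 0.05, beside 159 of all 439 miRNAs. So did 3 of 6 liver, endothelium and nerve markers, 1 of 7 epithelium markers, 1 of 6 muscle markers and 0 of 4 cartilage markers. For P9 against P3 it was 2 cartilage markers and 0 of the other marker lists, beside 76 of all 439. DESeq2 called 1 cartilage marker for P9 against P3 and 0 of the other marker lists. Of all 439 miRNAs, DESeq2 called 46 for P9 against P3 and 118 for FFSS against P3. The edgeR calls for FFSS against P3 were miR-142-5p (1.53, edgeR adjusted p = 0.0437), miR-200b-3p (1.53, edgeR adjusted p = 0.0399) and miR-9a-5p (1.21, edgeR adjusted p = 0.0464). Each was lost on leaving out 1 of several libraries, any P3 replicate and FFSS replicate 1 among them. Their edgeR adjusted p reached 0.166, 0.178 and 0.214. Between P9 and FFSS, edgeR called 1 marker lower in each of the blood, epithelium and cartilage lists, and 0 higher. These were miR-142-5p (-1.34, edgeR adjusted p = 0.0473), miR-203a-3p (-1.57, edgeR adjusted p = 0.0361) and miR-140-3p (-1.06, edgeR adjusted p = 0.00953). They stayed called in 1, 3 and 9 of 9 fits that left out 1 library. Of all 439 miRNAs, 11.8% were called lower and 22.6% higher.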

How the data were processed

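Small RNA was ligated to adaptors and sequenced from 1 end, per the labels' protocols. The deposited table holds read counts for 726 miRNA rows in 9 libraries, per the file headers. Its TPM columns, made by the authors, equalled the count scaled to 1000000 reads of the column total, without a length term. The submitters' processing notes name Bowtie and Rnor_6.0, but neither the counting program nor the annotation release. RefSeq sequences and positions come from GRCr8, another build, and 578 of 726 rows matched a mature name.

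Counts were fitted as deposited with edgeR 4.0.16 in R 4.3.3: filterByExpr (439 rows), TMM scaling, 1 model of all 9 libraries, robust quasi-likelihood test, Benjamini-Hochberg adjustment over the 439, threshold 0.05. SE is the absolute log2 fold change over the square root of F. Arm ratios, with 0.5 added per arm, used limma 3.58.1. DESeq2 1.42.0 and limma-voom were alternatives. The edgeR and arm ratio fits were also run on simulated counts. Those had independent rows and 1 fixed spread for all rows, a simpler setting than these data. Library totals count shared reads once per row.

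Members, lists and naming rules were chosen with earlier results of these data known. Named are the members, the 5 rows closest in profile, up to 4 listed miRNAs with the smallest p per comparison and list, and markers reaching 20 CPM; miRNAs were also named when a count was small.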

Additional observations from a re-analysis of the deposited data

How the results depend on the processing

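Under 22 alternative settings (other scalings, filters and tests, log2(TPM + 1) and log2(TPM + 10), 2-group fits, a replicate block, merged rows and leaving out each library), no member was called for FFSS against P3. Merging rows dropped miR-3557-5p, so it was fitted in 21 of the settings. The value of miR-378a-3p stayed positive, from 0.07 without FFSS replicate 1 to 0.79 without FFSS replicate 2. That of miR-378a-5p turned negative without FFSS replicate 1 (-0.18) and without P3 replicate 2 (-0.06), with a highest value of 0.40; the cause was not tested. With log2(TPM + 10), miR-378a-5p had -1.02 for P9 against P3 and -1.21 for P9 against FFSS, where the added 10 exceeds the P9 level. Leaving out 1 library gave -2.79 to -2.07 for miR-378a-3p and for miR-3557-5p in P9 against FFSS, and -2.08 to -1.49 for miR-378a-5p. The arm ratio for FFSS against P3 ranged from -0.38 to -0.27 over 14 settings and was never called.

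The number of miRNAs called, which sets the background, was 90 for FFSS against P3 and 32 for P9 against P3. For FFSS against P3 it ranged from 36 without P3 replicate 1 to 147 without P9 replicate 3, and was 45, 55 and 40 without P3 replicates 2 and 3 and FFSS replicate 3. For P9 against P3 it ranged from 16 without P3 replicate 1 or 3 to 51 without P9 replicate 3, and was 20 and 21 without P9 replicates 1 and 2. Leaving out each library for the called members of all 8 lists was chosen after seeing the data: over the 3 contrasts all 46 calls kept their sign in 9 of 9 such fits, and 16 stayed called in all 9, 2 of 12 for FFSS against P3, 2 of 5 for P9 against P3 and 12 of 29 for P9 against FFSS. With the replicate block it was 51 for FFSS against P3. Same-numbered libraries deviated together at correlations of -0.47 to 0.12, and 0 of 9 libraries correlated best with their own number, so the numbers were not taken as pairs; with the block miR-378a-3p had 0.59 for FFSS against P3 and was not called. Reads of the 5p arm, 63 to 64 per P9 library, limit the precision of its share there. With DESeq2 the lipid, glucose and insulin list of 23 had 3 calls for P9 against P3 and 2 for FFSS against P3. The fat cell and mitochondria list of 24 had 0 and 6, and the intronic list of 61 had 6 and 7. Of all 439 miRNAs, DESeq2 called 46 for P9 against P3 and 118 for FFSS against P3.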
